A study of Mus musculus with 16 samples.

Results

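Tff3, Zg16, St6galnac1, Creb3l1, Agr2 and Reg4 are 6 genes of goblet cell secretion and mucus. They were picked by symbol, with earlier results of these data known. Of these, 5 were named among 23332 transcript clusters (sets of probes summarised as a transcript), of which 1973 carried exactly 1 gene symbol. Agr2 was named only in a gene-level table of 1793 genes, which the authors had selected by a test of differences among the groups without CONV. Colon RNA of outbred Swiss Webster mice was hybridised to 16 Affymetrix Mouse Exon ST arrays, 4 per group. All groups started from germ-free mice. The first received Bifidobacterium UCC2003 (UCC2003), the second Bifidobacterium carrying a mutant of the bacterial gene TadA (TadA mutant), the third stayed germ-free as the control (GF) and the fourth was re-conventionalised (CONV), that is, given a complex microbiota. The labels used here give no age, sex or duration of colonisation. Each array is labelled as a biological replicate, and the precision of all values is limited by that number of arrays. Pancreatic transcripts set some arrays apart within every group: the acinar enzyme Cpa1 was at 10.92 log2 units or more in 2 UCC2003, 1 TadA mutant, 3 GF and 2 CONV arrays and at 7.49 or less in the others.

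Goblet cells are the secretory cells of the colonic epithelium that build and renew the mucus layer. They pack the gel-forming mucin MUC2 with smaller secreted proteins such as trefoil peptides and lectins, and this load passes through an enlarged endoplasmic reticulum in which chaperones, disulfide isomerases and stress-responsive transcription factors keep folding in pace with secretion. Sugar chains, many of them capped with sialic acid, are added to the mucin in the Golgi and shield it from bacterial enzymes. Bacterial colonisation is known to change the thickness and composition of colonic mucus.

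The sequences just upstream of 2 of the members, Reg4 and Agr2, could be read from RefSeq (build GRCm38.p6). They are shown to give the sequence context of Reg4, which carried the clearest difference between groups, and of Agr2. Each window covers 300 bases around a gene start as the promoter table places it, 5′ to 3′ on the plus strand, chr3:98221906-98222205 for Reg4 and chr12:35992675-35992974 for Agr2. Capitals mark every match, on either strand, to ACGTG, the core of unfolded protein response elements, to CCACG, an end of the endoplasmic reticulum stress element, to TGACGT, the core of cyclic AMP response elements, to the CCAAT box, to CAGCTG, a form of the E-box, or to TATAAA, a form of the TATA box.
Reg4: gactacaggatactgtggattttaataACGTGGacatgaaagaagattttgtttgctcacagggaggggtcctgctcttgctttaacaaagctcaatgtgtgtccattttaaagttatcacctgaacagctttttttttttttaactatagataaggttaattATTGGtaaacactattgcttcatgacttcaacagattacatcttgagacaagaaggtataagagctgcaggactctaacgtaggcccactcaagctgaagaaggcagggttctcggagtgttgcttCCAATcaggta
Agr2: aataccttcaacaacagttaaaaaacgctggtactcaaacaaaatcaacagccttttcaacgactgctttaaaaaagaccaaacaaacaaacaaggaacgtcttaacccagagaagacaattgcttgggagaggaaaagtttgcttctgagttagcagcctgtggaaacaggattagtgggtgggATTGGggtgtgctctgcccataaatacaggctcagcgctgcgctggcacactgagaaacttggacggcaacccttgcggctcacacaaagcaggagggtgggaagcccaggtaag
The Reg4 window held ACGTG and CCACG, which overlap there on opposite strands, and CCAAT at 2 places. The Agr2 window held CCAAT once, on the minus strand. Of 32851 promoter windows of the same length, 19.6% held ACGTG, 32.8% held CCACG and 37.4% held CCAAT. In neither was TGACGT, held by 7.51% of those windows, nor the E-box form, held by 16.3%, nor the exact string TATAAA, held by 13.6%. Looser forms of the TATA box were not searched. A match is a description of these letters and not a binding site.

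The clearest result was in the CONV colon, where Reg4 was lower than in each of the other groups and Tff3 was lower than in UCC2003. The Tff3 call was lost in 12 of 27 alternative settings, and the Reg4 call against GF in 5 of 27. All 5 members named among the clusters had their lowest group mean in CONV, as did 31.8% of all clusters. None of the 5 passed the test between either monocolonised group and GF, or between UCC2003 and the TadA mutant. In whole colon, fewer goblet cells and less RNA per goblet cell cannot be told apart. Values are log2 intensities, so a difference of 1 is a doubling, and levels are not compared between genes because each is read by its own probes.

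Reg4 encodes a secreted C-type lectin of the regenerating islet-derived family, made in the colon by goblet-like and deep crypt secretory cells. Its values were 11.28, 11.24, 11.19 and 11.09 in the GF arrays and 11.37, 11.23, 11.24 and 11.44 in the UCC2003 arrays. The TadA mutant arrays read 11.48, 11.27, 11.39 and 11.26, and the CONV arrays 10.69, 10.81, 10.90 and 10.65. Every CONV array lay below every other array, while the other groups overlapped. Such a complete separation was found in 1 of the 5 members and in 0.947% of all clusters. The mean level was 10.76 ± 0.112 (SD, n = 4) in CONV and 11.20 ± 0.079 in GF. Against GF the CONV level fell by 0.44 ± 0.083 (SE), a 1.35-fold difference with an adjusted p of 0.0139 by limma, or 0.0503 without GF replicate 1. Against UCC2003 it fell by 0.56 ± 0.083 (1.47-fold, adjusted p = 0.00242 by limma) and against the TadA mutant by 0.59 ± 0.083 (1.5-fold, adjusted p = 0.00216 by limma). These 3 comparisons share the same CONV arrays. Over the 4 groups, Reg4 passed the moderated F test of limma with an adjusted p of 0.00413.

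Tff3, trefoil factor 3, is a small peptide secreted with mucin that takes part in the repair of the epithelial surface. Its values were 12.50, 12.43, 12.60 and 12.42 in GF and 12.51, 12.70, 12.53 and 12.61 in UCC2003. The TadA mutant arrays read 12.48, 12.53, 12.49 and 12.57, and the CONV arrays 12.08, 11.99, 12.15 and 12.48. In CONV, replicates 1 to 3 lay below all 12 other arrays, and replicate 4 lay within the range of the GF arrays. The CONV level fell by 0.41 ± 0.096 (SE) against UCC2003, a 1.33-fold difference with an adjusted p of 0.0353 by limma, and no array of these groups overlapped. The difference was -0.31 ± 0.096 against GF (adjusted p = 0.142 by limma) and -0.34 ± 0.096 against the TadA mutant (adjusted p = 0.108). Without CONV replicate 4, Tff3 passed against all 3 groups, with adjusted p of 0.0117 against GF, 0.00251 against UCC2003 and 0.00882 against the TadA mutant by limma. Its call against UCC2003 was lost without any one of UCC2003 replicates 2, 3 or 4, TadA mutant replicate 1 or CONV replicates 1, 2 or 3 (adjusted p from 0.0509 to 0.104 by limma). The authors' deposited table gives Tff3 a lower CONV mean, 12.07 in place of 12.18, and adjusted p-values of 0.0311 against GF, 0.0123 against UCC2003 and 0.0248 against the TadA mutant. Its Tff3 differences were -0.41 from GF, -0.50 from UCC2003 and -0.44 from the TadA mutant. These were near the values without CONV replicate 4, which were -0.41, -0.52 and -0.44. That table rests on the same series, with other group means and 16135 features, so it is no separate support. For Reg4 the authors' deposited table gives 0.0585, 0.0214 and 0.0222 for the same comparisons.

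Zg16, zymogen granule protein 16, is a lectin-like component of colonic mucus that binds Gram-positive bacteria. Its values were 12.74, 12.85, 12.91 and 12.61 in GF, 12.81, 12.90, 12.85 and 12.89 in UCC2003, and 12.71, 12.79, 12.84 and 12.89 in the TadA mutant. The CONV arrays read 12.66, 12.45, 12.68 and 12.52. All of these lay below both monocolonised groups but overlapped with GF, in which replicate 4 was low. The differences of CONV were -0.20 ± 0.081 (SE) from GF, -0.29 ± 0.081 from UCC2003 and -0.23 ± 0.081 from the TadA mutant. None passed, with adjusted p of 0.292, 0.0726 and 0.206 by limma, but without GF replicate 4 the one against UCC2003 was 0.0483.

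**Figure D1:**
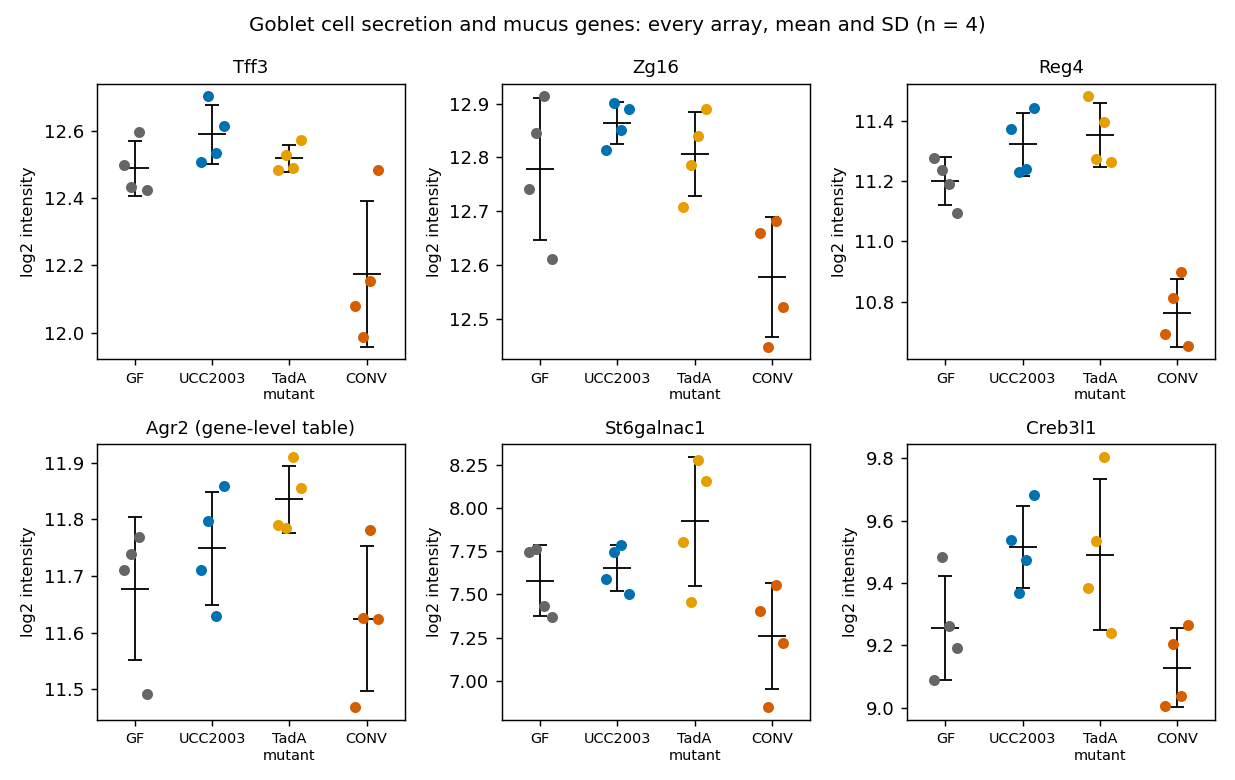
Log2 intensity of each goblet gene on every array by group (points), with the group mean and SD (bars, n = 4); each panel has its own vertical scale, and Agr2 comes from the gene-level table. The CONV points of Reg4, from 10.65 to 10.90, lie below all others, and in Tff3 1 CONV array, at 12.48, lies apart from the other CONV arrays.

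Agr2 encodes a protein disulfide isomerase of the endoplasmic reticulum that is needed for mucin production. In the gene-level table its values were 11.71, 11.74, 11.77 and 11.49 in GF and 11.71, 11.80, 11.63 and 11.86 in UCC2003. They were 11.79, 11.79, 11.91 and 11.86 in the TadA mutant and 11.47, 11.63, 11.78 and 11.62 in CONV. The TadA mutant arrays lay above every GF array and every CONV array, and all other pairs of groups overlapped. The table holds genes selected on differences among UCC2003, TadA mutant and GF (p = 0.0464 for Agr2 over these 3 groups in the authors' deposited table), so its values among those groups are given as a description, and 14.4% of the table's genes had every TadA mutant array above every GF array. The CONV mean, 11.62 ± 0.128 (SD, n = 4), was the lowest, as in 16.5% of the table's genes. The difference of CONV was -0.053 ± 0.094 (SE) from GF, -0.12 ± 0.094 from UCC2003 and -0.21 ± 0.094 from the TadA mutant. The last had an unadjusted p of 0.0392 in the limma fit across all genes and an adjusted p of 1, and 1.28% of the table's genes passed that comparison. CONV against GF (3.46% of the table's genes passed) and against UCC2003 (4.13%) also gave Agr2 an adjusted p of 1 by limma. Beside this, 6.64% of the table's genes were below every TadA mutant array in every CONV array. With adjustment over the table's 1793 genes alone, 202 were called in CONV against the TadA mutant, and Agr2 was not. The lowest adjusted p of Agr2 in that comparison under any alternative was 0.151 by limma.

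St6galnac1 encodes a sialyltransferase that caps mucin sugar chains. Its values were 7.74, 7.77, 7.43 and 7.37 in GF, 7.59, 7.75, 7.79 and 7.50 in UCC2003, and 7.80, 7.45, 8.28 and 8.16 in the TadA mutant. The CONV arrays read 7.41, 6.85, 7.56 and 7.22. The TadA mutant arrays were the most scattered, with an SD of 0.373 (n = 4), and CONV overlapped with every group. The largest of its differences, CONV against the TadA mutant, was -0.67 ± 0.183 (SE) with an adjusted p of 0.101 by limma, and without TadA mutant replicate 2 it was -0.82 with an adjusted p of 0.0345. CONV differed by -0.32 ± 0.183 from GF (adjusted p = 0.50) and by -0.40 ± 0.183 from UCC2003 (adjusted p = 0.251).

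Creb3l1 encodes a membrane-bound transcription factor that is released from the endoplasmic reticulum by cleavage and drives genes of the secretory pathway. Its values were 9.09, 9.48, 9.26 and 9.19 in GF, 9.54, 9.37, 9.48 and 9.68 in UCC2003, and 9.38, 9.54, 9.80 and 9.24 in the TadA mutant. The CONV arrays read 9.01, 9.21, 9.04 and 9.26. CONV lay below every UCC2003 array and overlapped with GF and the TadA mutant. CONV differed by -0.39 ± 0.123 (SE) from UCC2003 (adjusted p = 0.105 by limma), by -0.36 ± 0.123 from the TadA mutant (adjusted p = 0.183) and by -0.13 ± 0.123 from GF (adjusted p = 0.734).

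Counted over the 5 cluster members, 1 fell in CONV against GF (Reg4), where 0.476% of all clusters fell and 1.89% passed in either direction. Against UCC2003, 2 fell (Reg4 and Tff3), beside 1.64% of all clusters that fell and 3.03% that passed. Against the TadA mutant, 1 fell (Reg4), beside 0.557% and 1.40%. The F test over the 4 groups called 1 of the 5 and 1.63% of all clusters. The median difference of the members was -0.31 against GF, -0.40 against UCC2003 and -0.36 against the TadA mutant, where the medians over all clusters were 0.0068, -0.016 and -0.0019. Every CONV array lay below every GF array in 1 of the 5 members (2.40% of all clusters), below every UCC2003 array in 4 (6.69%) and below every TadA mutant array in 2 (5.09%).

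**Figure D2:**
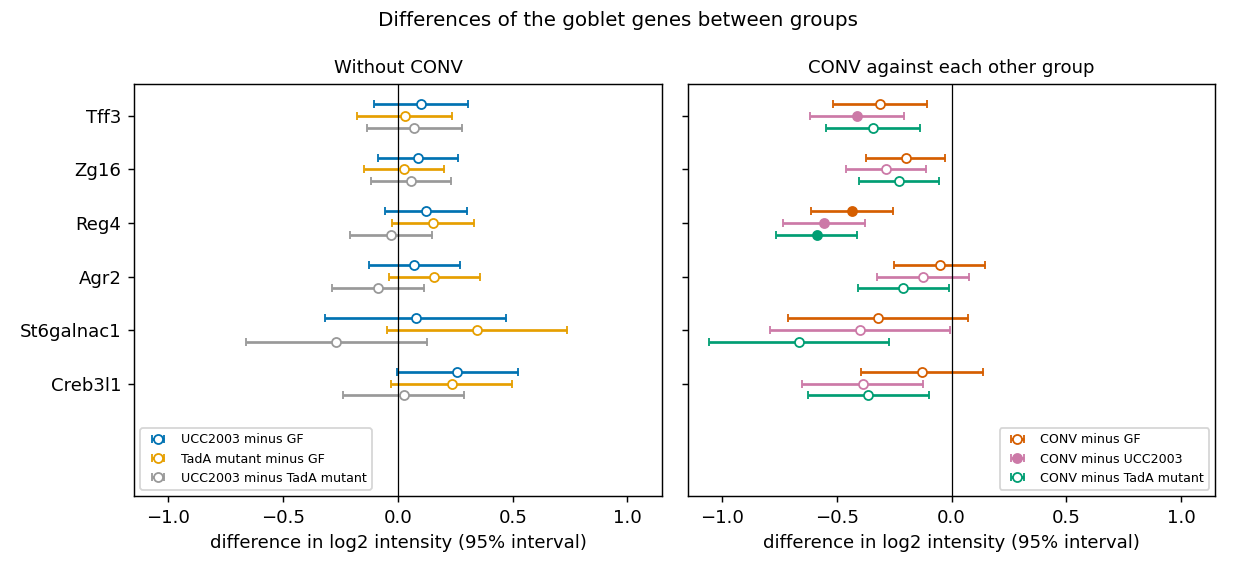
Difference in log2 intensity of each goblet gene between groups, with the 95% interval of the limma fit (bars); filled points have an adjusted p under 0.05. The right panel holds the 4 filled points, Reg4 in 3 comparisons and Tff3 in 1, and all intervals in the left panel include 0.

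Colonisation with a single Bifidobacterium strain gave no called difference in these genes. Against GF, all 5 cluster members had higher means in UCC2003, by 0.077 to 0.26, and in the TadA mutant, by 0.027 to 0.34, while 40.8% and 43.8% of all clusters were lower. The 2 comparisons share the GF arrays. By limma 0 of the 5 members passed in UCC2003 against GF, where 0.0214% of all clusters passed, and 0 had an unadjusted p under 0.05, as 7.96% of all clusters did. In the TadA mutant against GF the counts were again 0 and 0, while 0.00% of all clusters passed and 6.01% had an unadjusted p under 0.05. The largest differences were those of St6galnac1 in the TadA mutant, 0.34 ± 0.183 (SE, adjusted p = 0.813 by limma), and Creb3l1 in UCC2003, 0.26 ± 0.123 (adjusted p = 0.633).

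Between UCC2003 and the TadA mutant, 0 of the 5 members passed, 0 had an unadjusted p under 0.05 by limma, while 0.00857% of all clusters passed and 3.58% had such a p. The 95% interval of the difference, UCC2003 minus TadA mutant, was -0.13 to 0.28 for Tff3, -0.12 to 0.23 for Zg16 and -0.21 to 0.15 for Reg4. It was wider for Creb3l1, -0.24 to 0.29, and for St6galnac1, -0.66 to 0.12. For Agr2 it was -0.29 to 0.11. Each interval includes 0, and true differences anywhere within it are compatible with these 4 arrays a group.

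Markers of other tissues and of other cell types moved along with the groups. The mean log2 intensity of the 3 named of 13 smooth muscle markers (Cnn1, Tpm2 and Lmod1) ran from 8.95 to 9.14 in UCC2003, 8.64 to 9.16 in the TadA mutant, 8.36 to 8.86 in GF and 8.17 to 8.49 in CONV, so that CONV was lowest and both monocolonised groups were highest, as in the means of the 5 cluster members. In CONV against UCC2003 all 3 were lower and 2 passed, where 1.64% of all clusters fell. Cnn1 fell by 0.94 (adjusted p = 0.00224 by limma) and Tpm2 by 0.61 (adjusted p = 0.0132). In CONV against GF, 2 of the 3 were lower and 1 was higher, and 0 passed, where 48.5% of all clusters were lower. Of the 13 markers, 5 were named in the gene-level table. All 5 were lower in CONV than in GF and 0 passed, where 51.4% of the table's genes were lower. Against UCC2003 all 5 were lower and 3 passed, where 1.51% of the table's genes fell. Against the TadA mutant all 5 were lower and 1 passed, where 0.279% fell. The mean of the 3 cluster markers on each array was taken as the smooth muscle marker level. With this level as a covariate the Reg4 difference was -0.40 ± 0.095 (SE) against GF (adjusted p = 0.0626 by limma), -0.46 ± 0.160 against UCC2003 (adjusted p = 0.531) and -0.50 ± 0.150 against the TadA mutant (adjusted p = 0.574), and 0 members passed in any comparison. Over all 23332 clusters the calls also became fewer with this covariate, 267 in place of 440 against GF, 17 in place of 706 against UCC2003 and 17 in place of 327 against the TadA mutant, so the members' count of 0 is not particular to them. St6galnac1 turned to 0.40 against UCC2003 and 0.058 against the TadA mutant. The 3 named of 12 pan-epithelial markers were at 10.02 to 10.20 in CONV and 9.79 to 10.05 in the other groups, and the 4 named of 20 absorptive colonocyte markers (Slc51b, Krt20, Cyp2c55 and Lypd8) at 9.33 to 9.98 in CONV, 8.97 to 9.29 in GF, 9.09 to 9.62 in UCC2003 and 8.77 to 9.06 in the TadA mutant. Neither list had its lowest mean in CONV. Within the absorptive list, Slc51b differed by 1.94 between CONV and GF (adjusted p = 0.000191 by limma) and Krt20 by 0.38 (adjusted p = 0.0565), while Cyp2c55 was at -0.17 and Lypd8 at -0.019. The 2 named of 16 mitosis markers (Birc5 and Ube2c) had a mean of 7.22 to 8.02 in CONV, 6.57 to 7.25 in GF, 6.72 to 6.97 in UCC2003 and 7.17 to 7.46 in the TadA mutant, and both rose in CONV against UCC2003 (adjusted p = 0.0386 and 0.0421 by limma). Of 4 named enteroendocrine markers, 3 were higher and 1 was lower in that comparison, and 1 passed. It was Pyy, which rose by 0.39 (adjusted p = 0.0366 by limma). Beside these calls, 1.39% of all clusters rose in CONV against UCC2003. The gene-level table names 8 mitosis and 3 enteroendocrine markers, all higher in CONV than in UCC2003, and 0 of either passed. In that comparison 40.8% of the table's genes were lower, and 2.62% rose with an adjusted p under 0.05. In CONV against GF, all 8 mitosis markers were higher and 1 passed, where 2.73% of the table's genes rose. Of the 3 enteroendocrine markers, 1 was higher and 2 were lower than in GF, and 0 passed. The part of these markers in the goblet gene differences was not tested.

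The mean of the 6 named of 22 pancreas markers ran from 6.11 to 12.96 in UCC2003, 6.01 to 12.73 in the TadA mutant, 6.08 to 12.95 in GF and 6.13 to 12.56 in CONV. With this level as a covariate, Reg4 kept adjusted p of 0.0104, 0.00198 and 0.00236 in CONV against GF, UCC2003 and the TadA mutant by limma, and Tff3 one of 0.0392 against UCC2003. Without the 8 arrays of high Cpa1 a single GF array was left, which the fit takes to vary like the other groups. The Reg4 difference was -0.48 ± 0.167 (SE) against GF (adjusted p = 0.515 by limma), -0.54 ± 0.136 against UCC2003 (adjusted p = 0.160) and -0.58 ± 0.124 against the TadA mutant (adjusted p = 0.154), and the Tff3 difference was -0.54 ± 0.096 against UCC2003 (adjusted p = 0.117). No member passed then, and over all clusters only 3 were called against GF, 7 against UCC2003 and 29 against the TadA mutant.

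**Figure D3:**
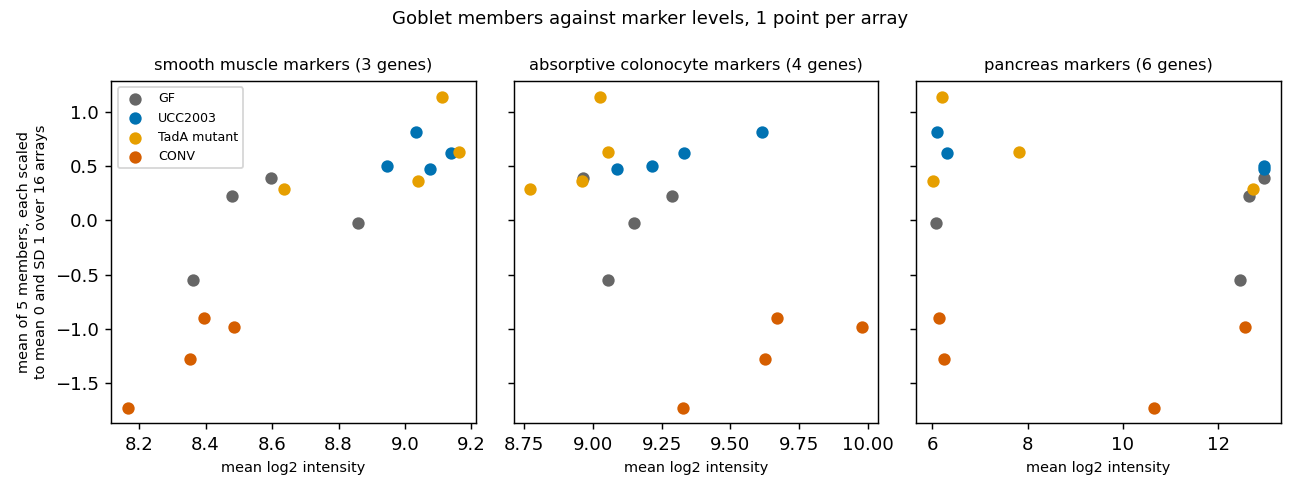
Mean of the 5 cluster members, each scaled to mean 0 and SD 1 over the 16 arrays (vertical axis), against the mean log2 intensity of 3 smooth muscle, 4 absorptive colonocyte and 6 pancreas markers (horizontal axes), 1 point per array. The CONV arrays are the lowest in the goblet genes and lie at 8.17 to 8.49 in smooth muscle markers, while pancreas markers are high or low within each group.

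Lists of genes drawn up here for goblet cells and mucus, mucin glycosylation and the secretory pathway were also counted. Of 47 goblet and mucus genes beyond the 6, 6 were named among the clusters. One of them, Lypd8, is also in the absorptive list, so counts and medians of this list are not of goblet cells alone. Muc2, Clca1, Fcgbp, Spdef and Atoh1 are in the list but were named neither among the clusters nor in the gene-level table. Best2, a bestrophin channel of colonic goblet cells, had a mean of 7.09 ± 0.240 (SD, n = 4) in CONV against 8.01 ± 0.160 in GF, 8.26 ± 0.219 in UCC2003 and 8.11 ± 0.263 in the TadA mutant. It fell by 0.92 ± 0.154 (SE) against GF (adjusted p = 0.00586 by limma), by 1.17 against UCC2003 (adjusted p = 0.000913) and by 1.02 against the TadA mutant (adjusted p = 0.00342). Foxa3, a forkhead transcription factor of goblet cells, fell by 0.56 ± 0.098 (SE) against UCC2003 (adjusted p = 0.00800 by limma), and its difference from GF was -0.40 (adjusted p = 0.0565). Sct, Lypd8, Ccl9 and Tpsg1 did not pass in any of these comparisons, and their CONV means differed from GF by -0.21 to 0.15. Among the clusters the list thus had 0 genes that rose and 1 that fell in CONV against GF, where 1.41% of all clusters rose and 0.476% fell, with a median of -0.12 beside 0.0068 over all clusters. The gene-level table names 4 genes of this list, Retnlb, Ffar4, Guca2a and Sct. In CONV against GF 1 of them rose and 0 fell, where 2.73% of the table's genes rose and 0.725% fell. Their median was 0.14 beside -0.0089 over the table's genes. Retnlb, a goblet cell protein that acts against Gram-negative bacteria, went the other way, from 6.91 ± 0.499 (SD, n = 4) in GF and 7.69 ± 0.509 in the TadA mutant to 10.61 ± 0.360 in UCC2003 and 11.27 ± 0.220 in CONV. Its rise in CONV over GF was 4.36 ± 0.264 (SE, adjusted p = 2.82e-07 by limma) and over the TadA mutant 3.57 ± 0.264 (adjusted p = 3.84e-06). UCC2003 exceeded GF by 3.70 and the TadA mutant by 2.91 (adjusted p = 9.15e-06 and 0.000284 by limma, comparisons on which the table was selected, and which 0.279% and 0.223% of its genes passed). Ffar4, Guca2a and Sct differed between CONV and GF by 0.098, -0.14 and 0.19 in this table. They passed in none of the 6 comparisons, in which 0.00% to 4.13% of the table's genes passed.

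Of 42 mucin glycosylation genes, 5 were named among the clusters. B4galnt2, a glycosyltransferase that adds a terminal sugar to intestinal glycans, fell by 2.22 ± 0.286 (SE) in UCC2003 against GF (adjusted p = 0.0209 by limma) and rose by 1.55 ± 0.286 in CONV against GF (adjusted p = 0.0113). In CONV against GF, Gcnt3, the enzyme that branches mucin sugar chains, differed by -0.34 ± 0.135 (adjusted p = 0.273), and Galnt4, Chst5 and B3gnt3 differed by -0.054 to 0.10. Of 64 secretory pathway and unfolded protein response genes, 4 were named (Ero1l, Spcs3, Spcs1 and Ern1) and 0 passed in any of the 6 comparisons, in which 0.00% to 3.03% of all clusters passed, so a count of 0 among 4 genes is near that background. The median of these 4 in CONV against GF was 0.044, and that of the mucin glycosylation genes 0.052. The gene-level table names 2 genes of each list. Both secretory genes were lower in CONV than in GF (median -0.15) and in UCC2003 than in GF (-0.26). Of the glycosylation genes, 1 was higher and 1 lower in each of these comparisons. One of them fell in UCC2003 against GF, where 0.112% of the table's genes fell, and 0 of the 4 passed in CONV against GF.

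**Figure D4:**
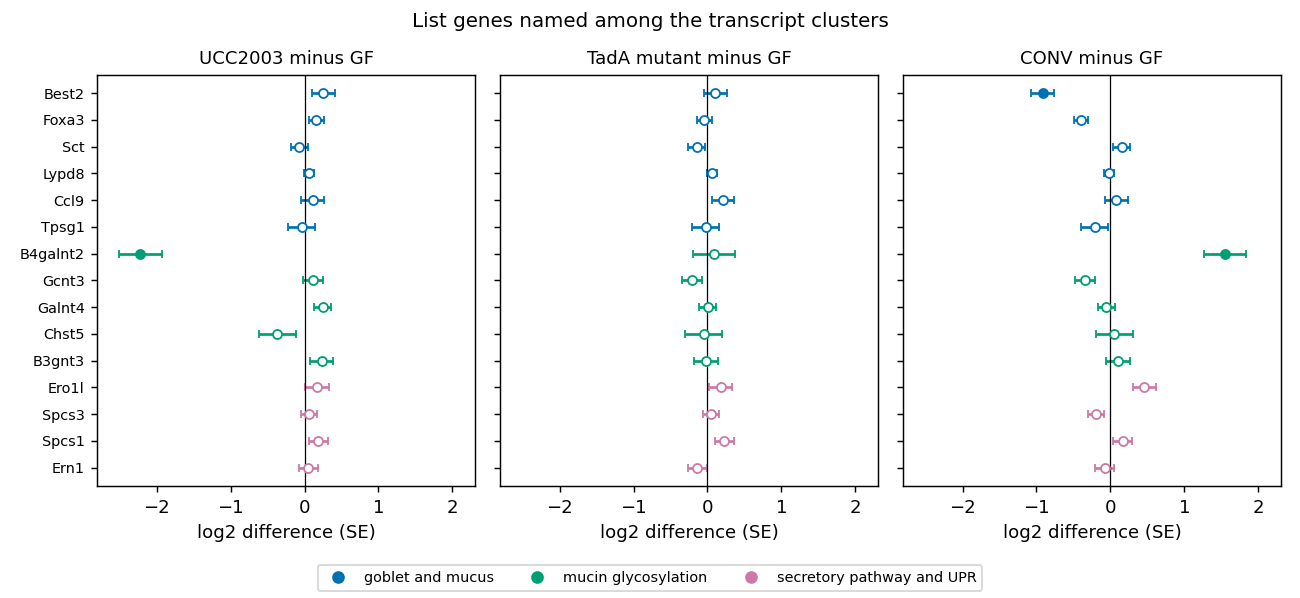
Difference in log2 intensity from GF (points, with SE) of the 15 list genes named among the clusters, in UCC2003, the TadA mutant and CONV; filled points have an adjusted p under 0.05. Best2 lies at -0.92 in CONV, and B4galnt2 lies at -2.22 in UCC2003 and 1.55 in CONV.

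Likeness to each member was measured as Pearson's r over the 16 arrays, among 1783 named genes, as a description. The arrays fall into the 4 groups, so a high r can come from shared group differences. Over the 10 pairs of cluster members, r ran from 0.40 (St6galnac1 and Creb3l1) to 0.73 (Tff3 and Zg16), and after removal of the group means from -0.35 (Tff3 and Reg4) to 0.55 (Zg16 and St6galnac1). The genes most like Reg4 were Pcp4l1 (r = 0.92), the smooth muscle gene Cnn1 (0.88) and Smad5 (0.87). Those most like Tff3 were the nucleotide receptor P2ry4 (0.91), Eci3 (0.91) and Sval1 (0.88), and those most like Zg16 were Pcmtd2 (0.93), Gpr89 (0.91) and Bace1 (0.90). For St6galnac1 they were Cnn1, Olfr611 and Pcp4l1, each at 0.78. Creb3l1 was most like Sar1a, a GTPase of vesicle budding from the endoplasmic reticulum (0.75), Alyref2 (0.71) and Trak2 (0.70). The mean of the 5 scaled members was most like Sval1, Cnn1 and Best2, each at 0.89. Agr2 was most like Mfsd4 (0.85), Synm (0.83) and Naa16 (0.81) among 1303 named genes of the gene-level table.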

How the data were processed

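The deposited array values are RMA log2 intensities. The tools named are Affymetrix Expression Console 1.1, RMA and Partek, with build mm9, per the submitters' processing notes. The authors' deposited comparison table gives log2 group means, signed fold changes as a score, and p-values with adjusted p-values for 16135 features, and named the clusters. The authors' deposited gene-level table gives log2 values per array, with columns that carry the group only. Groups came from the treatment labels. The design text states more CONV animals than the 4 arrays analysed here.

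Here, 1 coefficient per group was fitted to the 16 arrays with limma 3.58.1 in R 4.3.3, two-sided, with Benjamini-Hochberg adjustment over all 23332 clusters and a threshold of 0.05. For the gene-level table the adjustment counted 35860 tests, since 1793 genes had passed at 0.05. The procedure was tested on simulated data, with changes put into CONV. Against GF it called 35 of 100 changes of 0.5 log2 units and 77 of 100 changes of 1, with 6 false calls. Uncalled differences of such sizes can therefore be missed. Array medians ran from 5.91 to 6.03, and 0 pairs of arrays were identical. The members, lists and tests were chosen with earlier results of these data known. Named are the 6 members, up to 6 measured genes per list by the F test, Retnlb, the 3 genes most like each member, and markers beside a result. Some lists share genes with the markers: Lypd8 is in the goblet and the absorptive list. Alternatives were other normalisations, a filter on dim clusters, other sets of arrays, a replicate block and covariates.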

Additional observations from a re-analysis of the deposited data

How the results depend on the processing

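All 405 differences of CONV recomputed for the 5 cluster members under the alternatives kept their sign except St6galnac1 with the smooth muscle marker level as a covariate, which was 0.40 against UCC2003 and 0.058 against the TadA mutant. The counts of members that passed depended more on the setting. Fitting the compared groups only gave 0 members in CONV against GF, 1 against UCC2003 and 0 against the TadA mutant, while calls over all clusters became 112, 194 and 83 in place of 440, 706 and 327. Quantile normalisation gave 1 against UCC2003, where 848 of all clusters were called. With the smooth muscle covariate, and without the arrays of high Cpa1 (an alternative chosen after seeing the data, which leaves 8 arrays), the counts were 0 in each CONV comparison and 0 in the F test. Calls over all clusters shrank as well, to 267, 17 and 17 against GF, UCC2003 and the TadA mutant and 89 (from 381) in the F test with the covariate, and to 3, 7, 29 and 4 without those arrays, so these losses are general. The authors' deposited comparison table gave 2 against the TadA mutant, with 237 of its 16135 features under 0.05. Leaving out 1 array at a time gave 0 to 2 against GF (0 without GF replicate 1, 2 without CONV replicate 4). It gave 1 to 3 against UCC2003, 1 to 2 against the TadA mutant and 1 to 2 in the F test. Calls over all clusters moved too, from 241 to 454 against GF (278 without GF replicate 1, 454 without CONV replicate 4). They ran from 306 to 903 against UCC2003, 163 to 392 against the TadA mutant and 183 to 364 in the F test. Reg4 lost its call against GF in 5 of 27 alternatives (adjusted p from 0.00672 to 0.515 by limma and in the authors' table), with a difference between -0.48 and -0.40, and against UCC2003 in 2 and the TadA mutant in 3. Tff3 lost its call against UCC2003 in 12 of 27 (adjusted p from 0.00251 to 0.834), and Zg16 passed there without moderation (0.0474), with a trended robust prior (0.0420), on clusters of mean at least 5 (0.0486) and without GF replicate 4 (0.0483).

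Replicate numbers did not pair the arrays, since correlations of same-numbered arrays ran from -0.31 to 0.21 with 4 of 24 over 0.1. With the replicate block, 1 member passed in CONV against UCC2003 (Tff3 had an adjusted p of 0.0671 by limma) and the other member counts did not change. Calls over all clusters became 293 against GF, 381 against UCC2003 and 220 against the TadA mutant. No paired analysis was possible for Agr2 because its columns carry no replicate number, and it has no named cluster, so that alternative was not run.

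Small uncalled differences changed sign. Centring each array on its median gave -0.00055 for Zg16 in the TadA mutant against GF. Quantile normalisation gave -0.026 for St6galnac1 in UCC2003 against GF and, for UCC2003 minus TadA mutant, -0.031 for Tff3, -0.10 for Zg16 and -0.0079 for Creb3l1. The smooth muscle covariate gave, against GF, -0.016 for Tff3, -0.46 for St6galnac1 and -0.044 for Agr2 in UCC2003 and -0.073 for Tff3, -0.036 for Zg16 and -0.12 for St6galnac1 in the TadA mutant, and 0.044 for Agr2 in CONV against UCC2003. Without the arrays of high Cpa1, St6galnac1 was at -0.12 in UCC2003 against GF. With 1 array left out, UCC2003 minus TadA mutant ran from -0.059 to 0.13 for Creb3l1 and from -0.072 to 0.011 for Reg4, and Zg16 in the TadA mutant against GF ran from -0.028 to 0.073. The causes were not tested.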
